A study of Sus scrofa with 8 samples.

Results

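The nuclear genes for the respiratory chain and the ATP synthase were followed in backfat, the subcutaneous fat of the back, of KNP and YS pigs. Members were chosen by gene symbol alone: names that start with NDUFA, NDUFB, NDUFC, NDUFS, NDUFV, UQCR, COX4 to COX8 or ATP5, and SDHA to SDHD, CYC1 and CYCS, without the NDUFAF assembly factors. Of 24123 probe sets on the GeneChip Porcine Genome Array, 76 met this rule and covered 61 genes: 33 of complex I, 4 of complex II, 2 of complex III, 7 of complex IV, 14 of complex V and cytochrome c. On the whole array 6765 genes have a symbol of their own. NDUFA4 is counted with complex I by its symbol, although its protein is now placed in complex IV. ATP5S is counted with complex V, although it encodes a coupling factor and no core subunit. Where a gene had several probe sets, the brightest on average stood for it. All 61 passed the filter on low signal, as did 73 of the 76 probe sets, and 58 were above the level of probe sets without a target on all 8 arrays; the others were NDUFS6, NDUFV3 and COX8H. RNA came from fat of the middle of the back, from KNP at 7 months (4 arrays) and from YS at 6 months (4 arrays). The animals were grown under the same conditions, 1 label gives YS as Yorkshire, and no label spells out KNP. Breed and age cannot be told apart, and no label says that each sample is a separate animal, so the errors and p-values cover only how far these 8 samples scatter, which may be technical. Levels are log2(signal + 16), differences are KNP minus YS on that scale, and SDs are over 4 arrays.

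The respiratory chain passes electrons from NADH (complex I, NADH dehydrogenase) or succinate (complex II, succinate dehydrogenase) through complex III and cytochrome c to oxygen at complex IV, cytochrome c oxidase. Complexes I, III and IV pump protons across the inner mitochondrial membrane, and the ATP synthase, complex V, uses the returning protons to make ATP. White adipocytes hold fewer mitochondria than muscle or brown fat and use them for lipid synthesis and fatty acid oxidation as well as for ATP. A few core subunits are encoded in mitochondrial DNA; no probe set with such a gene symbol was found, and these subunits were not analysed here.

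The first question was whether these genes differed between the breeds. In limma, 0 of the 73 member probe sets reached an adjusted p under 0.05 (0% of all 17999 tested), and the smallest adjusted p of a member was 0.9998. At an unadjusted p under 0.05 there was 1 member probe set, against 2.84% of all probe sets. The mean was higher in KNP for 31 of the 61 genes and lower for 30, with a median difference of 0.0087; over all 6006 named genes 51.8% were higher and the median was 0.013. Without YS replicate 4 the mean was higher for 5 of 61 genes, and without KNP replicate 1 for 14. Differences ran from -0.78 for SDHC to 1.04 for COX8H. The 95% interval of the difference held 0 for all 61 genes, and its median half-width was 0.81, so a difference of that size in either direction lies within the error of these 8 arrays. In whole backfat, fewer cells of a type and less RNA per cell cannot be told apart.

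**Figure D1:**
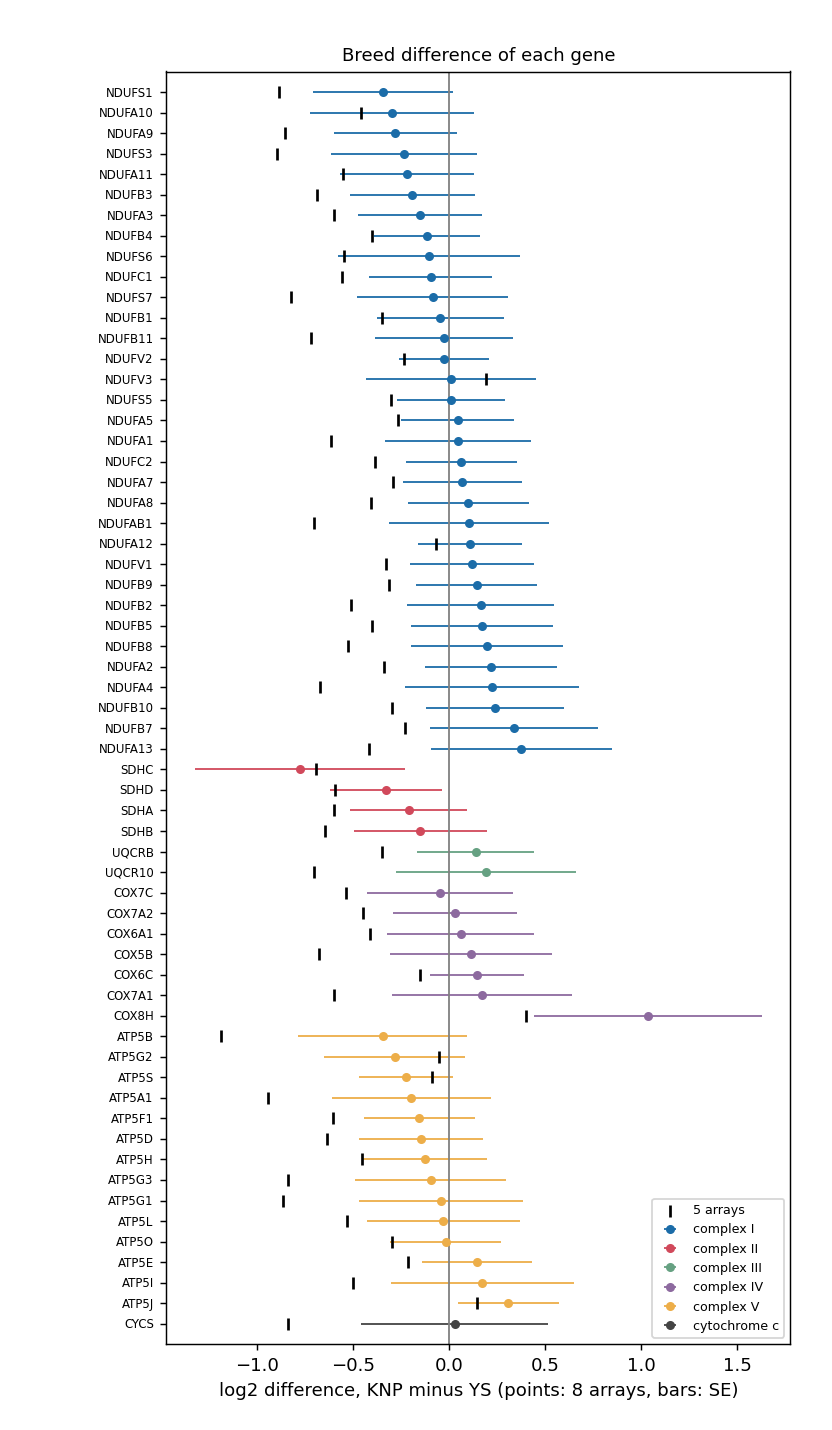
Log2 difference, KNP minus YS, of each of the 61 genes, coloured by complex; points are 8 arrays with bars of 1 SE from limma, and black ticks are the difference over the 5 arrays left when the 3 arrays of largest 3'/5' signal difference are left out. Points lie around 0, from -0.78 to 1.04, and 58 of the 61 ticks lie below 0. Left out are KNP replicates 1 and 2, highest of KNP by the genes' median, and YS replicate 4, lowest of YS.

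The members varied together across arrays. Their median SD was 0.43 in KNP and 0.55 in YS, and 0.22 in YS without replicate 4. For all named genes it was 0.44, 0.39 and 0.26. The members are brighter than most genes, and for the 1878 other named genes with a mean log2 of 10 or more it was 0.34, 0.30 and 0.19. YS replicate 4 had the lowest value of all 8 arrays for 46 of the 61 genes (75.4%), against 20.5% of all named genes and 34.8% of those 1878 bright ones. Relative to the mean of the other 3 YS arrays it was lower for 57 genes, all but NDUFA5, COX8H, ATP5I and ATP5J, and the median of this difference over the 61 was -1.03. Over all named genes the same median was 0.0047, and over the 1878 other named genes with a mean log2 of 10 or more it was -0.34. KNP replicate 1 was above the mean of the other 3 KNP arrays for 55 of 61 genes, by a median of 0.47 over all 61, against 55.9% of named genes and a median of 0.11. The highest of the 8 values lay on YS replicate 1 for 26 genes and on KNP replicate 1 for 25.

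**Figure D2:**
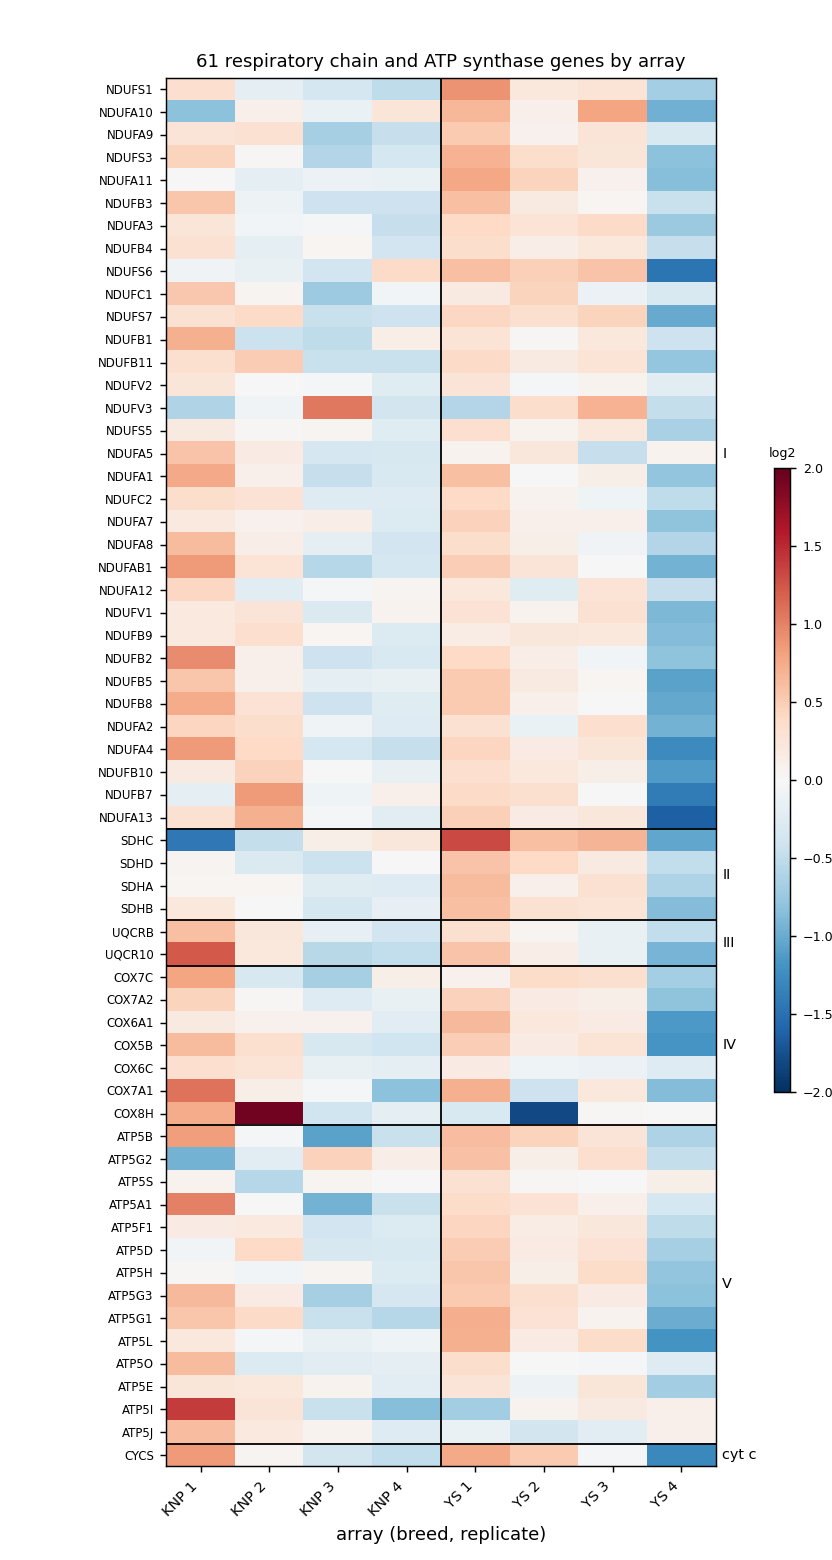
Log2 signal of the 61 genes minus each gene's mean over 8 arrays (colour, from -2 to 2), with genes in rows by complex and arrays in columns. The column of YS replicate 4 is the lowest of the 8 for 46 genes, and the median of the 61 genes is 0.43 on YS replicate 1 and -0.26 and -0.26 on KNP replicates 3 and 4.

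Set out by array, the median of the 61 genes around their own means was 0.34, 0.098, -0.26 and -0.26 on KNP replicates 1 to 4 and 0.43, 0.16, 0.20 and -0.77 on YS replicates 1 to 4. The same median over all named genes stayed between -0.018 and 0.094. Over the 1878 other named genes with a mean log2 of 10 or more it was -0.25 on YS replicate 4 and -0.035 to 0.11 on the other arrays. Within KNP, replicates 3 and 4 were low and replicate 1 high; within YS, replicates 1 to 3 lay above KNP replicates 2 to 4, and replicate 4 was the lowest of all. In each complex YS replicate 4 was the lowest array, with a median of -0.80 for complex I, -0.75 for complex II, -0.72 for complex III, -0.80 for complex IV, -0.56 for complex V and -1.29 for CYCS. After quantile normalization, which gives all arrays the same distribution of values, the median of the 61 genes on YS replicate 4 was -0.57 (all named genes -0.054), and after centring each array on its median it was -1.27 (all named genes -0.49).

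**Figure D3:**
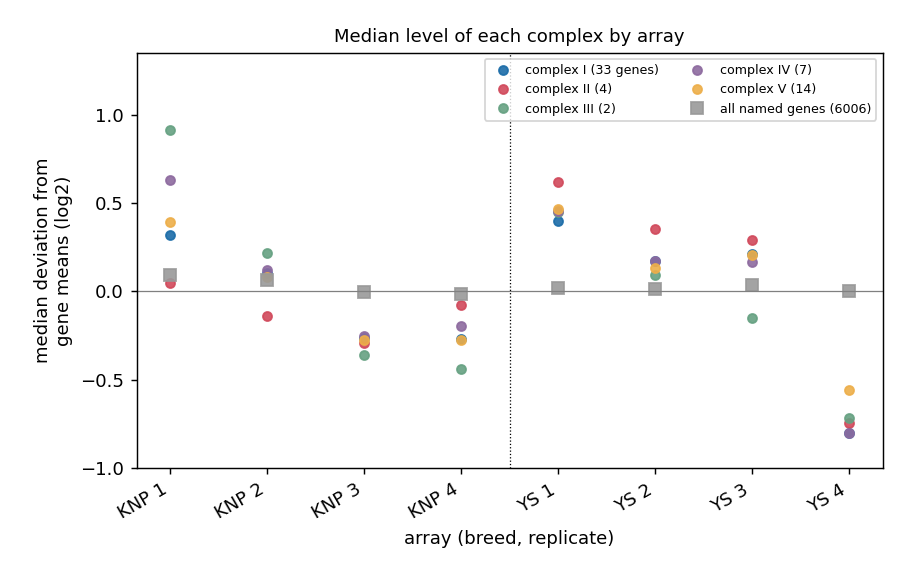
Median over the genes of each complex of log2 signal minus the gene's mean over 8 arrays, by array, with all 6006 named genes as grey squares. The complexes lie between -0.80 and -0.56 on YS replicate 4 in log2, where all named genes lie at 0.0029. The 1878 other named genes with a mean log2 of 10 or more, not drawn, lie at -0.25 there.

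The arrays also differed in measures of RNA and hybridization. The 3'/5' difference, the log2 signal of the 3' minus the 5' probe sets of 3 housekeeping controls, which grows when transcripts are degraded or incompletely copied, was 8.54 on KNP replicate 1, 5.88 on KNP replicate 2 and 4.40 on YS replicate 4, and between 2.12 and 3.17 on the other 5. YS replicate 4 also had the highest background, with a 95th percentile of 161 in signal for 23 control probe sets that have no target in pig RNA, against 40.6 to 115 on the other arrays. Their part in the members' pattern was not tested beyond the fits that follow. When this 3'/5' measure entered the model as a covariate, 20 genes were higher and 41 lower in KNP, with a median of -0.081.

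The even split between the breeds depended on YS replicate 4 and KNP replicate 1. Without YS replicate 4 the mean was lower in KNP for 56 of 61 genes, with a median difference of -0.21, while over all named genes 48.3% were lower and the median was 0.014. Over the 1878 other named genes with a mean log2 of 10 or more, 59.5% were lower and the median was -0.070. In those 7 arrays 9 of the 73 member probe sets had every KNP value below every YS value, against 2.36% of all probe sets, and 0 had every value above, against 3.97%. An unadjusted p under 0.05 was reached by 3 with a lower KNP mean, against 1.41%, and by 0 with a higher mean, against 3.51%. Without KNP replicate 1 the mean was lower for 47, with a median of -0.14 against 0.0056 for all named genes. With any other array left out, 32 to 40 of the 61 genes were higher in KNP. Over the 5 arrays left without the 3 of largest 3'/5' difference, a choice made after seeing the data, 58 of 61 genes were lower in KNP; the exceptions were ATP5J, NDUFV3 and COX8H. The median difference of all 61 was -0.51, against -0.010 for all named genes and -0.041 for the 1878 others with a mean log2 of 10 or more. Of the 73 member probe sets, 48 had both KNP values below all 3 YS values, against 12.3% of all probe sets, and 1 had both above, against 14.5%. An unadjusted p under 0.05 with a lower KNP mean was reached by 19 member probe sets, against 4.54% of all, and with a higher mean by 0, against 3.88%. No probe set passed the adjusted threshold in limma over 5 arrays or without YS replicate 4 (0% of all in each), and the smallest adjusted p of a member was 0.47 and 0.958. These member counts come from genes that vary together across arrays, so the members are not independent of each other. The 3 arrays left out include KNP replicates 1 and 2, the highest of KNP by the members' median (0.34 and 0.098). The third is YS replicate 4, the lowest (-0.77). Leaving them out lowers KNP and raises YS for the members as a group. The values over 5 arrays thus follow from the array pattern above and are no separate evidence of a breed difference.

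Complex I takes electrons from NADH through a flavin and a chain of iron-sulfur clusters in its peripheral arm, and its membrane arm pumps protons. The mean was higher in KNP for 19 of its 33 genes and lower for 14, with a median of 0.045; with 1 array left out this median lay anywhere from -0.19 (without YS replicate 4) to 0.13 (without KNP replicate 3). Among the NDUFS genes, which include core iron-sulfur subunits, 4 of 5 were lower in KNP; the median was -0.10 over 8 arrays and -0.82 over 5. The 13 NDUFA genes, mostly accessory subunits, were higher for 9 (median 0.068; -0.46 over 5 arrays, where all 13 were lower). The 10 NDUFB genes, accessory subunits of the membrane arm, were higher for 6 (median 0.15; -0.40 over 5 arrays, where all 10 were lower). The 3 NDUFV genes, named for the flavoprotein fraction, had medians of 0.0087 and -0.24, and the 2 NDUFC genes of -0.017 and -0.47. YS replicate 4 was the lowest array for 27 of the 33 genes.

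NDUFS1, the largest core subunit with several iron-sulfur clusters, had the smallest unadjusted p of complex I. Its log2 signal was 10.75, 10.23, 10.05 and 9.90 on KNP replicates 1 to 4 and 11.30, 10.62, 10.67 and 9.72 on YS replicates 1 to 4. YS replicate 1 was the highest array, YS replicate 4 the lowest, and the breeds overlapped. The means were 10.23 ± 0.37 in KNP against 10.58 ± 0.65 in YS, a difference of -0.35 ± 0.36 (SE) with an adjusted p of 0.9998 in limma, and with 1 array left out the difference ran from -0.63 (without YS replicate 4) to -0.11 (without YS replicate 1). NDUFA9, an accessory subunit where the peripheral arm meets the membrane arm, was at 11.42, 11.47, 10.49 and 10.69 on KNP replicates 1 to 4 and 11.68, 11.25, 11.42 and 10.85 on YS replicates 1 to 4. KNP replicates 3 and 4 were the 2 lowest values and the other KNP values lay among those of YS. Its difference was -0.28 ± 0.32 (SE), and -0.43 (without YS replicate 4) to -0.10 (without KNP replicate 3) with 1 array left out. NDUFA10, an accessory subunit of the membrane arm, was at 8.81, 9.74, 9.50 and 9.87 on KNP replicates 1 to 4 and 10.30, 9.73, 10.41 and 8.67 on YS replicates 1 to 4. Here YS replicate 4 and KNP replicate 1 were the 2 lowest arrays, and the difference was -0.30 ± 0.43 (SE), or -0.67 (without YS replicate 4) to -0.075 (without KNP replicate 1) with 1 array left out.

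NDUFA13 and NDUFB7 had a higher mean in KNP over 8 arrays and a lower one without YS replicate 4. NDUFA13, an accessory subunit also known as GRIM-19, was at 12.24, 12.65, 11.90 and 11.74 on KNP replicates 1 to 4 and 12.43, 12.11, 12.18 and 10.31 on YS replicates 1 to 4. The YS replicate 4 value lay below the other 7, among which the breeds overlapped. The difference was 0.38 ± 0.47 (SE) over 8 arrays and -0.11 (without YS replicate 4) to 0.60 (without YS replicate 1) with 1 left out. NDUFB7, an accessory subunit that faces the intermembrane space, was at 8.95, 9.99, 9.05 and 9.25 on KNP replicates 1 to 4 and 9.53, 9.47, 9.16 and 7.75 on YS replicates 1 to 4. It had its lowest value on the same array and its highest on KNP replicate 2, with a difference of 0.34 ± 0.44 (SE), and -0.073 (without YS replicate 4) to 0.52 (without YS replicate 1) with 1 array left out. NDUFV3 was the complex I gene least well measured: its signal exceeded that of the probe sets without a target on 1 KNP array and 2 YS arrays. NDUFS6 was above that level on all arrays but YS replicate 4.

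Complex II, succinate dehydrogenase, belongs to both the citrate cycle and the respiratory chain. All 4 of its genes had a lower mean in KNP, with a median of -0.27, and none passed the test. That median was -0.51 (without YS replicate 4) to -0.11 (without YS replicate 1) with 1 array left out and -0.62 over 5 arrays. SDHC, 1 of the subunits that anchor the enzyme in the membrane, was at 8.94, 9.89, 10.48 and 10.60 on KNP replicates 1 to 4 and 11.69, 10.96, 11.04 and 9.32 on YS replicates 1 to 4. KNP replicate 1 and YS replicate 4 were the 2 lowest arrays, and YS replicates 1 to 3 were all above all 4 KNP arrays. The means were 9.98 ± 0.75 in KNP against 10.76 ± 1.01 in YS, and the difference was -0.78 ± 0.55 (SE) over 8 arrays (adjusted p = 0.9998 in limma). With 1 array left out it ran from -1.25 (without YS replicate 4) to -0.43 (without KNP replicate 1); the smallest adjusted p of any member in these limma fits was 0.958. SDHD, the other membrane anchor, was at 12.26, 11.93, 11.78 and 12.22 on KNP replicates 1 to 4 and 12.78, 12.61, 12.40 and 11.72 on YS replicates 1 to 4, with YS replicates 1 to 3 again above every KNP array and a difference of -0.33 ± 0.29 (SE), or -0.55 (without YS replicate 4) to -0.19 (without YS replicate 1) with 1 array left out. The catalytic flavoprotein SDHA had means of 12.40 ± 0.17 in KNP against 12.61 ± 0.53 in YS, and the iron-sulfur subunit SDHB of 12.28 ± 0.24 in KNP against 12.43 ± 0.65 in YS; YS replicate 4 was the lowest array for each.

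Complex III, the cytochrome bc1 complex, was represented by 2 small accessory subunits. No probe set for CYC1 or another UQCR gene met the rule, so its catalytic subunits were not analysed here. UQCR10 was at 13.47, 12.46, 11.70 and 11.76 on KNP replicates 1 to 4 and 12.82, 12.38, 12.10 and 11.31 on YS replicates 1 to 4. KNP replicate 1 was the highest array and YS replicate 4 the lowest, and the difference was 0.19 ± 0.47 (SE), -0.18 (without KNP replicate 1) to 0.42 (without YS replicate 1) with 1 array left out and -0.71 over 5 arrays. UQCRB, which helps to bind ubiquinone, was at 13.27, 12.89, 12.50 and 12.28 on KNP replicates 1 to 4 and 12.99, 12.71, 12.51 and 12.17 on YS replicates 1 to 4, again highest on KNP replicate 1 and lowest on YS replicate 4, with a difference of 0.14 ± 0.30 (SE), and -0.040 (without KNP replicate 1) to 0.29 (without KNP replicate 4) with 1 array left out. CYCS, somatic cytochrome c, the mobile carrier between complexes III and IV, was at 11.67, 10.88, 10.45 and 10.34 on KNP replicates 1 to 4 and 11.58, 11.35, 10.78 and 9.53 on YS replicates 1 to 4. It had the third largest spread within breeds of the 61 genes after COX8H and SDHC, with SDs of 0.60 in KNP and 0.91 in YS. Its breed difference was 0.028 ± 0.49 (SE) over 8 arrays, -0.40 (without YS replicate 4) to 0.28 (without YS replicate 1) with 1 left out and -0.84 over 5 arrays.

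Complex IV has subunits that occur as tissue isoforms, with forms typical of heart and skeletal muscle and forms found in most tissues. Of its 7 genes 6 had a higher mean in KNP and 1 a lower, with a median of 0.11, and -0.23 (without YS replicate 4) to 0.29 (without YS replicate 1) with 1 array left out. COX8H, the heart and muscle form of subunit 8, had the smallest unadjusted p and the largest within-breed spread of the 61 genes. Its log2 signal was 7.73, 8.92, 6.59 and 6.79 on KNP replicates 1 to 4 and 6.68, 5.18, 7.01 and 7.00 on YS replicates 1 to 4, over the no-target level in all 4 KNP samples, on replicates 3 and 4 by 0.065 and 0.015 only, and in 2 YS samples. KNP replicate 2 was the highest and YS replicate 2 the lowest, and the breeds overlapped. The means were 7.50 ± 1.06 in KNP against 6.47 ± 0.87 in YS, a difference of 1.04 ± 0.59 (SE) (adjusted p = 0.9998 in limma), and 0.57 (without KNP replicate 2) to 1.34 (without KNP replicate 3) with 1 array left out. On KNP replicate 2 skeletal muscle markers stood out: of 30 markers listed, 23 had a probe set, and their summed signal was 112449 there, 9288 to 30721 on the remaining KNP arrays and 14095 to 16999.5 on the YS arrays. The carbonic anhydrase CA3, which fat also expresses, made up 82.7% to 92.8% of the sum on the other 7 arrays. Without CA3, left out after its values were seen, the sum was 95529 on KNP replicate 2 and 1039 to 2911 elsewhere, and the muscle creatine kinase CKM was at 13.55 against 6.23 to 8.49 elsewhere. Of the 17 muscle markers tested, 16 had a higher mean in KNP, but 6 without KNP replicate 2, where 11 were lower; 51.8% of all named genes were higher over 8 arrays. On all arrays, 4 of the 23 were above the no-target level. Their part in the COX8H difference was not tested.

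The other isoform genes of complex IV were not highest on KNP replicate 2. COX7A1, the muscle form of subunit 7A that brown fat also uses, was at 11.74, 10.77, 10.62 and 9.83 on KNP replicates 1 to 4 and 11.37, 10.25, 10.86 and 9.79 on YS replicates 1 to 4. It was highest on KNP replicate 1 and lowest on YS replicate 4, and its difference was 0.17 ± 0.47 (SE), or -0.16 (without KNP replicate 1) to 0.48 (without KNP replicate 4) with 1 array left out. COX7A2, the form found in most tissues, was at 12.60, 12.17, 11.90 and 12.01 on KNP replicates 1 to 4 and 12.61, 12.33, 12.27 and 11.35 on YS replicates 1 to 4, with a difference of 0.031 ± 0.33 (SE). COX6A1, the common form of subunit 6A, was at 13.49, 13.41, 13.40 and 13.09 on KNP replicates 1 to 4 and 13.97, 13.52, 13.48 and 12.17 on YS replicates 1 to 4. Its KNP values spanned little (SD 0.18), its YS values ran from the highest to the lowest of all 8 (SD 0.77), and the difference was 0.059 ± 0.38 (SE). COX5B, a nuclear subunit on the matrix side, was at 12.98 ± 0.50 in KNP against 12.87 ± 0.76 in YS, and COX6C, a membrane subunit, at 14.07 ± 0.27 in KNP against 13.93 ± 0.17 in YS, which after NDUFV2 is the smallest within-breed spread of the 61 genes. For COX7C the difference was -0.047. Over the 61 genes KNP replicate 2 lay above the mean of the other 3 KNP arrays by a median of 0.12, against 0.059 for all named genes.

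**Figure D4:**
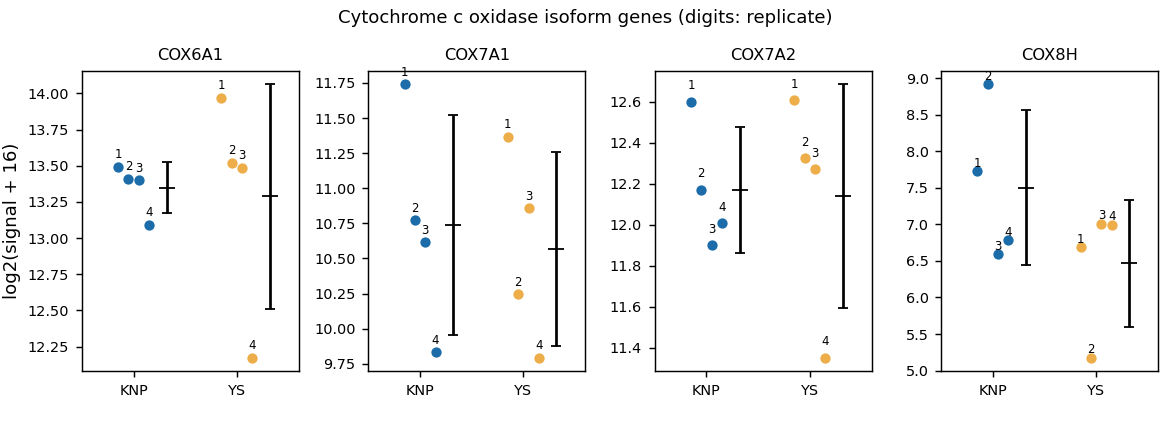
Log2(signal + 16) of 4 complex IV isoform genes in 4 KNP and 4 YS arrays; digits give the replicate, and bars the mean and SD, with an axis of its own for each gene. COX8H is highest on KNP replicate 2, at 8.92, while COX6A1, COX7A1 and COX7A2 are lowest on YS replicate 4.

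The ATP synthase has a catalytic head in the matrix, a ring of c subunits that turns in the membrane, and a peripheral stalk that holds the head still. Its 14 genes had a lower mean in KNP for 11 and a higher mean for 3, with a median of -0.11. That median was -0.36 (without YS replicate 4) to 0.034 (without KNP replicate 3) with 1 array left out, also above 0 without YS replicate 1 (0.020), and -0.52 over 5 arrays. Among ATP5A1, ATP5B, ATP5D and ATP5E, of the matrix part that includes the head, 3 of 4 were lower (median -0.17, and -0.79 over 5 arrays). In the peripheral stalk 3 of 4 were lower (medians -0.072 and -0.38), and in the c ring all 3 (medians -0.096 and -0.84). YS replicate 4 was the lowest array for 7 of the 14 genes. ATP5B, the catalytic beta subunit, was at 13.99, 13.14, 12.08 and 12.72 on KNP replicates 1 to 4 and 13.77, 13.60, 13.41 and 12.54 on YS replicates 1 to 4. KNP replicate 3 was its lowest array, KNP replicate 1 its highest, and the difference was -0.35 ± 0.44 (SE), or -0.68 (without KNP replicate 1) to -0.048 (without KNP replicate 3) with 1 array left out. Over the 5 arrays the ATP5B difference was -1.19, the most negative of the 61 genes, with KNP replicates 3 and 4 below YS replicates 1 to 3. ATP5J, coupling factor 6 of the stalk, was at 11.49, 11.07, 10.95 and 10.62 on KNP replicates 1 to 4 and 10.75, 10.52, 10.65 and 10.97 on YS replicates 1 to 4, with a difference of 0.31 ± 0.26 (SE), 0.15 (without KNP replicate 1) to 0.45 (without KNP replicate 4) with 1 array left out and 0.14 over 5 arrays, above 0 each time. The coupling factor gene ATP5S was at 9.38 ± 0.30 in KNP against 9.60 ± 0.13 in YS.

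The 3 ATP5G genes encode the same mature c subunit with different import sequences. ATP5G1 was at 12.09, 11.92, 11.09 and 10.98 on KNP replicates 1 to 4 and 12.26, 11.83, 11.61 and 10.55 on YS replicates 1 to 4, with a difference of -0.043 ± 0.43 (SE). ATP5G3 was at 13.79, 13.31, 12.47 and 12.80 on KNP replicates 1 to 4 and 13.66, 13.46, 13.30 and 12.32 on YS replicates 1 to 4, with a difference of -0.096 ± 0.39 (SE). These 2 genes had the same low arrays, KNP replicates 3 and 4 and YS replicate 4. ATP5G2 was at 10.58, 11.32, 11.98 and 11.66 on KNP replicates 1 to 4 and 12.12, 11.64, 11.87 and 11.05 on YS replicates 1 to 4; it was lowest on KNP replicate 1, where ATP5G3 was highest, and its difference was -0.28 ± 0.37 (SE), or -0.49 (without YS replicate 4) to -0.015 (without KNP replicate 1) with 1 array left out. Over the 5 arrays the differences were -0.87 for ATP5G1, -0.84 for ATP5G3 and -0.054 for ATP5G2.

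For 12 of the 61 genes more than 1 probe set met the rule, 27 in all, and among those tested the sign of the difference was opposite for 3 genes, NDUFA1, NDUFS3 and NDUFV2. Some probe sets of 1 gene did not follow each other across arrays; the pairs given here were chosen after their values were seen. The dimmer SDHA probe set was at 6.65, 7.95, 10.51 and 10.57 on KNP replicates 1 to 4 and 10.92, 10.22, 10.62 and 8.55 on YS replicates 1 to 4, while the brighter was at 12.55, 12.55, 12.26 and 12.24 on KNP replicates 1 to 4 and 13.14, 12.60, 12.81 and 11.89 on YS replicates 1 to 4. The dimmer one was lowest on KNP replicates 1 and 2 and YS replicate 4, the arrays whose 3'/5' difference was largest, and the brighter one was not low on the 2 KNP arrays. The second NDUFS3 probe set was at 6.17, 6.71, 7.51 and 8.17 on KNP replicates 1 to 4 and 8.25, 8.53, 8.18 and 8.23 on YS replicates 1 to 4. It was the only member probe set with no overlap between the breeds (KNP wholly below YS; 0.856% of all probe sets, and 0 members wholly above against 1.1%) and the only one with an unadjusted p under 0.05, with a difference of -1.16 ± 0.42 (SE) and an adjusted p of 0.9998 in limma. It too was lowest on KNP replicates 1 and 2, and exceeded the no-target level on 2 of the KNP arrays, while the brightest NDUFS3 probe set gave -0.24 and the third 0.28. The 2 SDHB probe sets differed by -0.15 and -0.031 between breeds, and only the brighter was lowest on YS replicate 4.

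**Figure D5:**
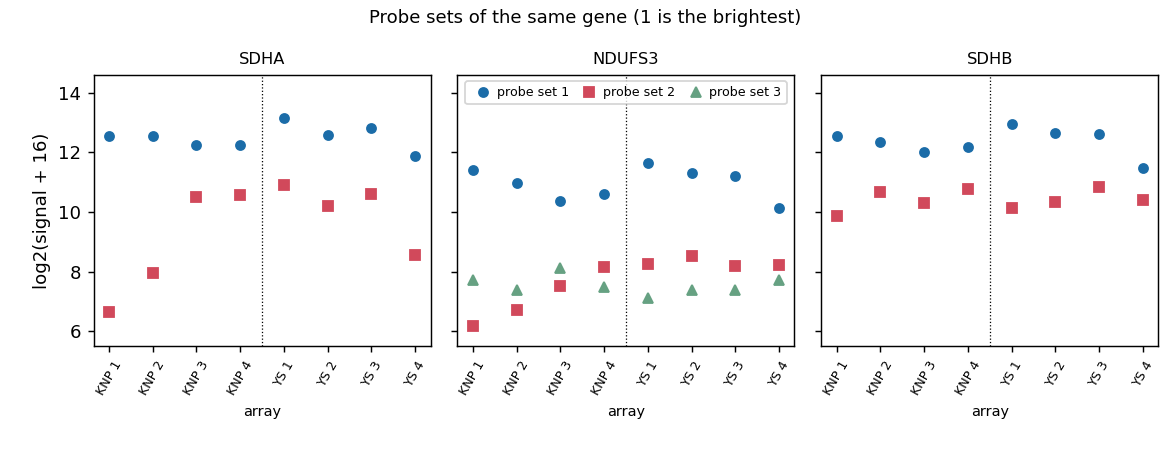
Log2(signal + 16) by array for each probe set of SDHA, NDUFS3 and SDHB, numbered from the brightest. The second SDHA probe set is at 6.65 and 7.95 on KNP replicates 1 and 2 and at 8.55 on YS replicate 4, and above 10 on the other 5 arrays.

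Genes that serve the chain without being subunits did not pass the test by breed either. Of 49 assembly factors listed, 15 were tested, 8 with a higher and 7 with a lower mean in KNP; 0 passed in either direction (0% of all probe sets) and the median was 0.013. Their median on YS replicate 4 was 0.055 around the gene means, against -0.77 for the subunits. Most of the 15 had a mean log2 below 10, while the median level of the subunits was 11.5. On that array all named genes stood at 0.0029 and the 1878 bright genes outside the members at -0.25. The part of signal level in this contrast was not tested. BCS1L and SCO2 had the smallest unadjusted p of the 15 (0.055 and 0.058 in limma). BCS1L, which inserts an iron-sulfur protein into complex III, was at 7.94, 8.04, 6.82 and 7.79 on KNP replicates 1 to 4. On YS replicates 1 to 4 it was at 7.21, 6.72, 7.09 and 6.72, the last below that array's no-target level of 7.47. Its difference was 0.71 ± 0.32 (SE). SCO2, a copper carrier to complex IV, was at 7.75, 7.47, 7.77 and 7.83 on KNP replicates 1 to 4 and 8.14, 8.27, 7.91 and 8.60 on YS replicates 1 to 4, with a difference of -0.53 ± 0.24 (SE). Among 38 carriers, regulators and related genes, 21 were tested, 10 higher and 11 lower, with 0 passing and a median of -0.0080; on YS replicate 4 they stood at -0.49. The ADP/ATP carriers gave 0.65 ± 0.31 (SE) for SLC25A4, -0.091 ± 0.35 (SE) for SLC25A5 and -0.031 ± 0.30 (SE) for SLC25A6. VDAC1, the main channel of the outer membrane, was at 13.85, 13.35, 12.80 and 13.06 on KNP replicates 1 to 4 and 13.88, 13.44, 13.30 and 12.47 on YS replicates 1 to 4, lowest on YS replicate 4. TFAM, which maintains and transcribes mitochondrial DNA, was at 10.37, 10.43, 10.08 and 10.29 on KNP replicates 1 to 4 and 10.17, 10.17, 10.34 and 10.70 on YS replicates 1 to 4, highest on YS replicate 4, with a difference of -0.052 ± 0.24 (SE). PPARGC1A, the co-activator that drives mitochondrial gene programmes, did not pass the filter on low signal.

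Marker lists show what else the samples held. Adipocyte markers, 8 of 11 with a probe set and 7 of these above the no-target level on all arrays, had a summed signal of 87359 to 102367 in KNP and 78868 to 112491 in YS, lowest on YS replicate 4, where their median around gene means was -0.43; 5 of the 8 had a lower mean in KNP, with a median difference of -0.33, and -0.33 without YS replicate 4. FABP4, the brightest of the 8 on every array at 15.12 to 15.78, weighed most in the summed signal. ADIPOQ, the adipokine adiponectin, was at 7.43, 8.80, 12.42 and 11.62 on KNP replicates 1 to 4 and 12.14, 11.18, 11.61 and 9.18 on YS replicates 1 to 4, with its lowest values on the same 3 arrays as the dimmer SDHA probe set. LIPE was lowest on these arrays too, at 11.49 and 12.94 on KNP replicates 1 and 2 and 11.40 on YS replicate 4. So was PPARG, at 11.04 and 10.87 on KNP replicates 1 and 2 and 11.41 on YS replicate 4. LPL, FABP4, LEP, DGAT2 and ADRB3 did not share this pattern as a whole. LPL was also lowest on KNP replicate 1, at 13.38, but FABP4 and LEP were highest there, at 15.78 and 12.33. Brown or beige markers, matched by symbol, had 4 of 7 with a probe set. Their sums were 1667 to 10241 in KNP and 2891 to 6295 in YS. Of the 4, 1 was above the no-target level on all arrays. The list names COX8B, a symbol that was not found, and COX8H was not counted in it. UCP1 was not among the 4, and CIDEA, which made up 70.7% to 98.4% of the sum by array, was at 10.22, 12.39, 13.29 and 11.65 on KNP replicates 1 to 4 and 12.59, 11.47, 12.55 and 11.40 on YS replicates 1 to 4. Skeletal muscle markers were summed above with COX8H. Macrophage markers (5 of 8, 3 above the no-target level on all arrays) summed to 1619.5 to 3843 in KNP and 2673 to 4569.7 in YS, endothelial markers (6 of 6, 4 above that level on all arrays and KDR on 0) to 10564 to 19692 in KNP and 13548 to 14724 in YS, and red blood cell markers (4 of 7, 1 above it on all arrays) to 861 to 1353 in KNP and 1006 to 1256 in YS. The part of these cell types in the members' pattern was not tested.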

How the data were processed

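Backfat RNA, biotin-labelled by the Affymetrix protocol per the labels, was hybridized to 1 array per sample. The authors deposited 1 linear intensity per probe set, and the values show each array scaled to a mean of 500 after trimming 2% at each end; the algorithm behind them was not given in the sources used here. Values were turned into log2(signal + 16), 124 control probe sets were dropped, as was the dimmest 25% of the rest by mean over the 8 arrays, and the remaining 17999 were fitted (R 4.3.3, limma 3.58.1) by lmFit and eBayes on breed alone (two-sided p, Benjamini-Hochberg adjusted, threshold 0.05). The fit was tested on simulated data. Depth does not apply to arrays; their number limits precision.

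Symbols came from the platform annotation; all 76 member probe sets matched the RefSeq annotation of Sscrofa11.1 by Entrez identifier, and 0 symbols changed. A probe set annotated with 2 entries was left out. Named genes were those with the smallest p per complex (5, 2, 3, 4 and 4 for I to V; complex III has 2), CYCS, tissue isoforms, and the 3 of largest pooled within-breed SD. Members, lists and alternatives were chosen with earlier results of these data known; the complex I and V subfamilies and the fit of 5 arrays were chosen after seeing the data and are descriptions. Replicate numbers are not said to pair samples and were used as a block only as an alternative, since same-numbered arrays correlated at -0.17, 0.022, 0.13 and -0.19 in their deviations. Alternatives were other filters, scalings, pseudocounts of 1 and 64, a variance trend with robust fitting (statmod 1.5.0), the 3'/5' difference as a covariate, each array left out, and 5 arrays.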

Additional observations from a re-analysis of the deposited data

Results flagged for a closer look

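In 56 groups of 4 arrays (22 named genes and 6 medians of complexes or of all members, each in both breeds), 2 arrays stood apart from the other 3 of their breed by Dixon's test; chance gives about 1 in 20 groups. NDUFA13 was at 10.31 on YS replicate 4, where the nearest YS array was at 12.11 and the gap took up 0.85 of the range. ATP5S was at 8.92 on KNP replicate 2, where the nearest KNP array was at 9.48 and the gap took up 0.87 of the range.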

How the results depend on the processing

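In limma, 0 probe sets, members included, passed 0.05 in each alternative fit, and 0 passed 0.10 in the main fit of 8 arrays. With the variance trend and robust fitting, the smallest adjusted p of any probe set was 0.060 in limma, and that probe set was no member. Between 372 and 1516 of all tested, and 0 to 19 members, had an unadjusted p under 0.05. A member's smallest adjusted p ranged from 0.47 to 0.999997. The median over the members was -0.019 under the stricter filter, which kept 59 genes, 0.033 and 0.015 under quantile normalization and median centring, 0.0054 and 0.0083 with pseudocounts of 1 and 64, -0.030 over every probe set and -0.081 with the 3'/5' covariate; no filter and the other variance model cannot change it. With 1 array left out the count of genes higher in KNP ran from 5 to 40 and the median from -0.21 to 0.11; it was 14 without KNP replicate 1 and 5 without YS replicate 4, and 20 with the 3'/5' covariate. Over 5 arrays it was 3, and the median was -0.51, with -0.42 in complex I, -0.53 in III, -0.45 in IV, -0.52 in V and -0.84 for cytochrome c. With the replicate block 0 probe sets passed; in this balanced design the block cannot move the differences (median 0.0087, 31 genes higher) and only changes their errors. Of the replicate numbers, 0 of 4 correlated best with their own number. Complex V also turned sign with 1 array left out (-0.36 to 0.034), and complex II ran from -0.51 to -0.11. Signs of uncalled gene differences turned with 1 array left out, with ranges of -0.38 to 0.19 for ATP5G1, -0.38 to 0.11 for ATP5G3, -0.26 to 0.30 for COX5B, -0.31 to 0.29 for COX6A1, -0.16 to 0.48 for COX7A1, -0.23 to 0.19 for COX7A2, -0.40 to 0.28 for CYCS, -0.11 to 0.60 for NDUFA13, -0.073 to 0.52 for NDUFB7, -0.18 to 0.42 for UQCR10 and -0.040 to 0.29 for UQCRB. They also turned with the covariate, to 0.0018 for ATP5G2, -0.016 for COX5B, -0.052 for COX7A1, -0.035 for COX7A2, -0.13 for CYCS, -0.081 for UQCR10 and -0.0056 for UQCRB, and over 5 arrays, to -0.68 for COX5B, -0.41 for COX6A1, -0.15 for COX6C, -0.60 for COX7A1, -0.45 for COX7A2, -0.84 for CYCS, -0.42 for NDUFA13, -0.23 for NDUFB7, -0.71 for UQCR10 and -0.35 for UQCRB. The cause was not tested. Signal near background limits NDUFV3 and COX8H.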
